A study of Rattus norvegicus with 12 samples.

Results

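Respiratory complex I oxidises NADH and passes the electrons to ubiquinone, and it pumps protons across the inner mitochondrial membrane while doing so. Its peripheral arm reaches into the matrix and carries the flavin and the iron-sulphur clusters, and its membrane arm holds the proton pumps. Core subunits do the chemistry, accessory subunits surround and stabilise them, and assembly factors help to build the complex without staying in it. Neural stem cells are known to raise mitochondrial respiration as they differentiate into neurons.

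The genes described here are all those whose symbol begins with Nduf, the prefix of the nuclear genes of complex I. This rule gave 38 of the 16468 genes listed. They comprised 7 core subunits of the peripheral arm, 26 accessory subunits, 3 assembly factors, and 2 genes set apart, namely Ndufa4, now known as a subunit of cytochrome c oxidase, and Ndufa10l1, a copy of Ndufa10. The core subunits encoded by mitochondrial DNA were not analysed here.

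Total RNA was sequenced from HCN cells, a clonal neural stem cell line isolated from the hippocampus of adult rats. Monolayers given FGF2 together with BMP4 were in an induced quiescent state (iQNP), and those given FGF2 without BMP4 proliferated like transit-amplifying progenitors (TAP). In each condition 2 control libraries came from cells electroporated with the empty vector and 4 knockdown libraries from cells electroporated with a vector for a short hairpin RNA against REST, the repressor of neuronal genes. As the control vector carried no hairpin, an effect of a hairpin as such and one of less REST cannot be told apart.

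Each table gives 1 FPKM value per gene and group (a fragment count corrected for transcript length and for sequencing depth), made by the authors from all libraries of that group. Values of single libraries were not used, so errors and tests across libraries could not be given, and each comparison below describes 4 group values. The iQNP and TAP tables were normalised in separate runs, so a level set across them also carries that difference. Depth per library was not computed, because FPKM values of pooled groups do not give it. In bulk RNA, fewer cells of a type and less RNA per cell cannot be told apart.

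The transcript targeted by the hairpin was lower in both knockdown groups. Rest, on chromosome 14 (33136045 to 33151142, build rn4), stood at 48.7 FPKM in iQNP control and 13.9 in iQNP knockdown, 71.5% lower. In TAP it stood at 27.8 and 9.002 FPKM, 67.6% lower. Of 8 neural stem markers 7 were listed and measured, from Vim (1220 to 3671 FPKM in the 4 groups) and Sox2 (172 to 278) to Pax6 (1.31 to 4.69). Gfap was at 17.0 and 18.9 FPKM in iQNP and at 1.06 and 1.36 in TAP. Of the 7, 2 had ratios above 0 and 5 below in iQNP, and 3 and 4 in TAP. Hes1 was the 1 at least 2-fold higher, in TAP (3.67 to 11.1), and Nes was 41.6% lower in iQNP. Among astrocyte markers S100b stood at 374 to 521 FPKM, with Aqp4 near 0. Markers of microglia and leukocytes summed to 2.69 to 3.93 FPKM, nearly all of it Cd68, and those of endothelial and mural cells to 0.161 to 1.47, with Cldn5 at 0 in every group. The oligodendrocyte lineage genes Sox10 (348 to 615 FPKM) and Mbp (97.4 to 132) were well expressed in these cells, and all 3 measured members of their list had lower values after knockdown. Among 5 neuron markers Snap25 and Tubb3 were at least 2-fold higher and Map2 at least 2-fold lower in both conditions. The part of these shifts in the values below was not tested.

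About 1 in 2 of the measured Nduf transcripts were at least 2-fold higher after REST knockdown, in iQNP and in TAP. The ratio used throughout is log2((knockdown FPKM + 1)/(control FPKM + 1)), which understates changes of low genes, and a gene was measured where the mean of its control and knockdown values was at least 1 FPKM. In iQNP, 19 of 37 measured members were at least 2-fold higher and 0 at least 2-fold lower, with a median log2 ratio of 1.06. Over all 9586 measured genes 14.4% were higher and 3.15% lower by that much, with a median of 0.00. In TAP, 19 of 37 members were at least 2-fold higher and 1, Ndufb10, lower, with a median of 1.03. Over all 9309 measured genes in TAP 15.4% were higher and 6.82% lower, with a median of 0.01.

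Of the 37 members that passed the minimum in each table, Ndufa10l1 passed through its knockdown value alone (18 of 36 were higher in each table without it), and Ndufa11 was the 1 that did not pass.

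How the groups were scaled moved these counts. The sum of FPKM over all genes was larger in each knockdown group, and setting both groups to the same sum shifts the log2 of the knockdown values by -0.53 in iQNP and by -0.61 in TAP. On the FPKM + 1 scale the median of all genes then moved by -0.47 and by -0.54. In iQNP this left 17 members higher and 0 lower, where 7.92% of all genes were higher and 20.9% lower. In TAP it left 11 higher and 5 lower (Ndufa10, Ndufaf4, Ndufb9, Ndufb10 and Ndufs7), where 7.01% of all genes were higher and 26.0% lower. The sign changed in 5 of 37 members in iQNP and in 8 in TAP, and the members' medians stayed above 0, at 0.54 and 0.42.

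**Figure D1:**
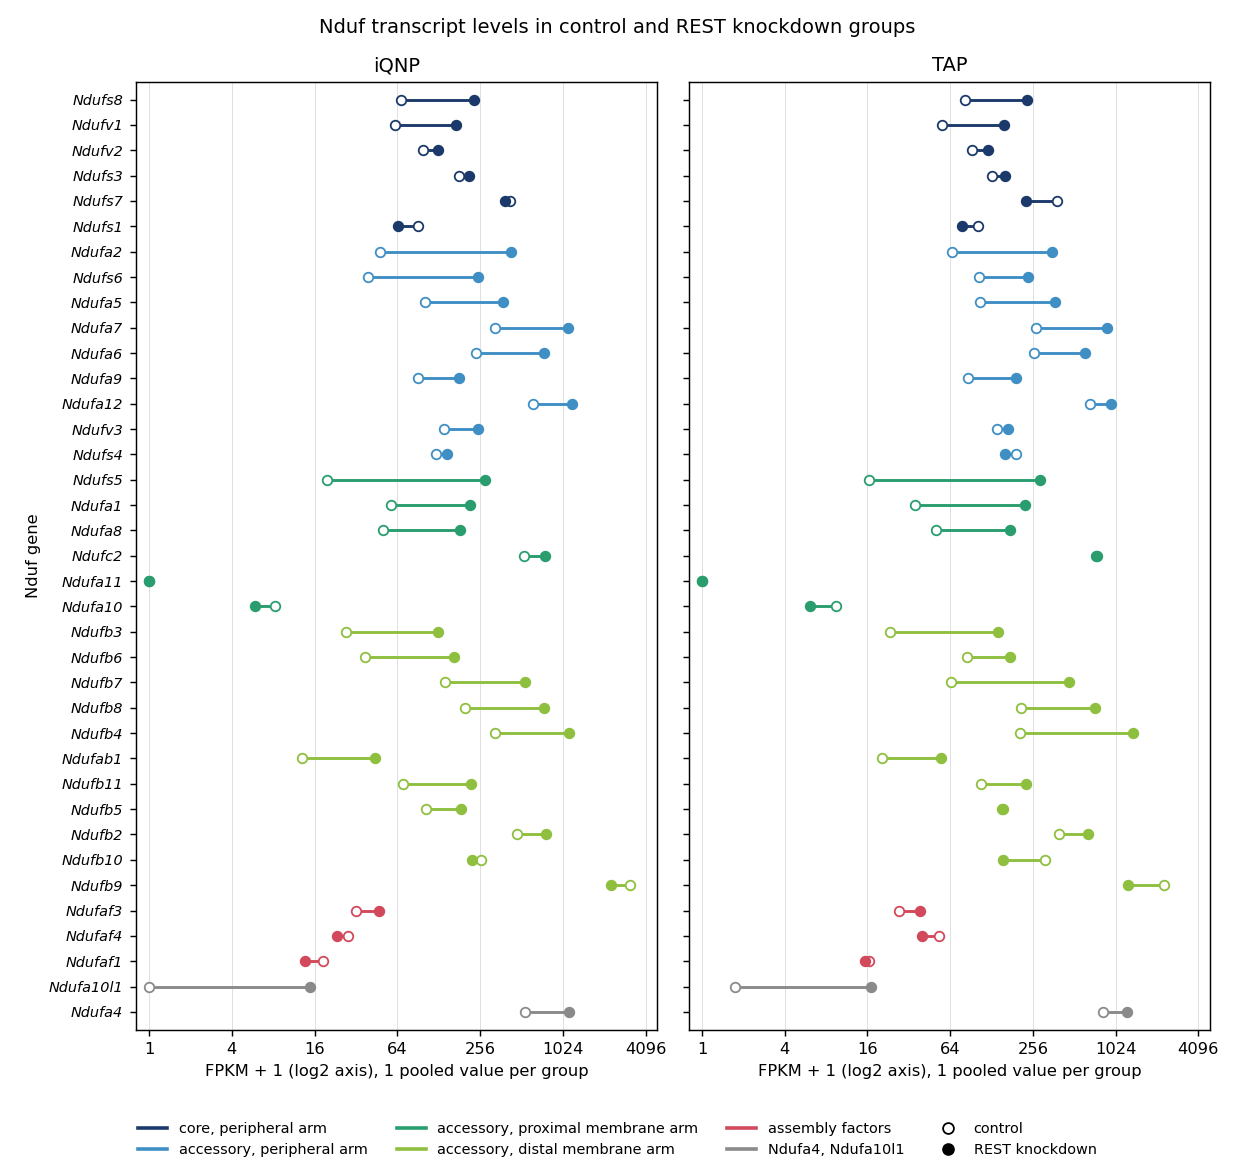
Levels of 37 Nduf genes in iQNP (left) and TAP (right), as FPKM + 1 on a log2 axis; open circles are the control group, filled circles the REST knockdown group, each a single pooled value without error, and colours give the role. The longest lines upward belong to accessory subunits such as Ndufs5 and Ndufa2 and to Ndufa10l1, while Ndufb9, at the highest control level in both conditions, has its knockdown value on the left.

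The levels themselves spanned a wide range. Among the 37 measured members the median was 96.6 FPKM in iQNP control and 223.7 in iQNP knockdown, and 102 and 222.8 in TAP. Members above 100 FPKM numbered 18 in iQNP control and 30 in iQNP knockdown, and 20 and 30 in TAP. The highest control values were those of Ndufb9, Ndufa12 and Ndufa4 in iQNP, at 3137, 625.5 and 539.9 FPKM. In TAP they were those of Ndufb9, Ndufa4 and Ndufc2, at 2284, 829 and 753 FPKM. FPKM is scaled to transcript length, so these levels are set beside each other within a group. The length correction was not checked here, and reads shared with named copies could alter the order. Ndufb9 alone gave 35.0% of the members' summed FPKM in iQNP control and 15.1% in iQNP knockdown, and 26.5% and 9.42% in TAP.

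The subunits lay somewhat closer to each other after knockdown. The SD of log2(FPKM + 1) among the 32 measured complex I subunits was 1.77 in iQNP control and 1.61 in iQNP knockdown, and 1.68 and 1.5 in TAP. These SDs describe the spread among genes, not among samples. All members together held 1.22% of summed FPKM in iQNP control and 1.44% in iQNP knockdown, and 1.30% and 1.31% in TAP.

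The core subunits of the peripheral arm had the smallest medians of the subunit groups. Of these 7, Ndufs8 and Ndufv1 were at least 2-fold higher in both conditions and 5 lay between the 2-fold bounds, with medians of 0.26 in iQNP and 0.32 in TAP that turned to -0.26 and -0.29 with the same sum of FPKM. That scaling left 1 core subunit higher in iQNP (Ndufs8), and 0 higher and 1 lower (Ndufs7) in TAP. Over all genes 14.4% were higher in iQNP and 15.4% in TAP. With the same sum these shares were 7.92% and 7.01%, with 26.0% lower in TAP. A single gene of 7 is too few to read against them. Ndufv1, which binds NADH and the flavin, was at 60.3 FPKM in iQNP control and 169 in iQNP knockdown, and at 54.5 and 156 in TAP. Both knockdown values lay above both control values, with log2 ratios of 1.48 and 1.5. Ndufs8, which holds iron-sulphur clusters on the path to ubiquinone, was at 67.1 and 229 FPKM in iQNP and at 81.2 and 230.3 in TAP (log2 ratios 1.76 and 1.49).

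Other core subunits lay near or below their control values. Ndufs1, the largest iron-sulphur subunit, was at 89.1 and 63.7 FPKM in iQNP and at 101 and 76.4 in TAP, with log2 ratios of -0.48 and -0.40. Ndufs7, next to the ubiquinone site, was at 422 and 388 FPKM in iQNP and at 382 and 228 in TAP, with log2 ratios of -0.12 and -0.74. Ndufs3 and Ndufv2 had log2 ratios of 0.26 and 0.37 in iQNP and of 0.32 and 0.38 in TAP, all of which fell below 0 with equal sums.

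Accessory subunits of the peripheral arm were mostly higher. Of 9, 5 were at least 2-fold higher in iQNP and 6 in TAP, and none lower, with medians of 1.65 and 1.20 (1.12 and 0.59 with the same sum of FPKM, which left 5 and 3 higher). The shares of all genes higher were 14.4% and 15.4%, and 7.92% and 7.01% with the same sum. Ndufa2, a subunit with a thioredoxin-like fold, was at 46.7 FPKM in iQNP control and 425 in iQNP knockdown, and at 64.5 and 353 in TAP. Its log2 ratios were 3.16 and 2.43, a 9.10-fold and a 5.47-fold difference. Ndufa5 (100.6 to 376 FPKM in iQNP, 104.9 to 367 in TAP) and Ndufa7 (330.5 to 1120.3 in iQNP, 268 to 879 in TAP) had log2 ratios between 1.71 and 1.89.

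Other subunits of the same arm differed less. Ndufa9, related to short-chain dehydrogenases, lay at the bound, at 90.1 and 179.9 FPKM in iQNP (log2 ratio 0.99) and at 85.4 and 193 in TAP (1.17). Ndufa12, a paralog of an assembly factor, was at 625.5 and 1201 FPKM in iQNP and at 666 and 949.9 in TAP (log2 ratios 0.94 and 0.51, the latter -0.10 with the same sum). Ndufs4, a subunit whose loss causes Leigh syndrome in people, was at 122 and 145 FPKM in iQNP and at 193 and 159 in TAP. Ndufv3, a small subunit beside the NADH end, was at 139 and 245 FPKM in iQNP and at 139.8 and 169 in TAP (0.81 and 0.27, the latter -0.34 with the same sum). For Ndufs4 the log2 ratio was 0.25 in iQNP and -0.28 in TAP, and -0.28 and -0.88 with the same sum.

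The accessory subunits around the proximal part of the membrane arm held the largest ratio of any complex I subunit. Of 6 listed, 5 were measured and 3 of these were at least 2-fold higher in both conditions (and with the same sum of FPKM), with medians of 1.87 and 1.78. Among all genes 14.4% were higher in iQNP and 15.4% in TAP (7.92% and 7.01% with the same sum). Ndufs5, a subunit with a twin CX9C motif on the intermembrane side, was at 18.8 FPKM in iQNP control and 278 in iQNP knockdown. In TAP it was at 15.5 and 288 FPKM. The log2 ratios were 3.82 and 4.13, a 14.8-fold and an 18.6-fold difference, so that a transcript among the 5 lowest of the 37 measured members in control lay above their median in knockdown. Ndufs5 is listed on chromosome 5 (143017421 to 143023425, build rn4), and 2 named pseudogenes of it are in the reference gene table, so reads could be shared with them.

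Ndufa1, a small single-pass membrane subunit encoded on the X chromosome, was at 57.0 and 215 FPKM in iQNP and at 34.7 and 222.8 in TAP (log2 ratios 1.90 and 2.65). Ndufa8, which like Ndufs5 sits on the intermembrane side, was at 49.3 and 182.9 FPKM in iQNP and at 49.7 and 173 in TAP (1.87 and 1.78). Ndufc2, a membrane subunit, was at 531 and 753 FPKM in iQNP and at 753 and 738 in TAP. Its log2 ratio was 0.50 in iQNP, -0.02 there with the same sum, and -0.03 in TAP. Ndufa10, a matrix-facing subunit related to nucleoside kinases, was at 7.26 and 4.94 FPKM in iQNP and at 8.48 and 5.15 in TAP (-0.47 and -0.62). Ndufa11, a membrane subunit, was listed at 0 in all 4 groups on an unplaced chromosome (25057378 to 25061438 of Un, build rn4), and was not measured.

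Ndufa10 and Ndufa10l1 were listed with the same locus on chromosome 9 (91655134 to 91689653, build rn4), and their ratios had opposite signs. Ndufa10l1 was listed at 0 in iQNP control and at 13.8 FPKM in iQNP knockdown, and at 0.735 and 15.99 in TAP. The log2 ratios on the FPKM + 1 scale were 3.89 and 3.29. The reference gene table places Ndufa10l1 on another chromosome than Ndufa10, so how the reads were divided between the pair is uncertain.

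In the distal part of the membrane arm, 7 of 11 accessory subunits were at least 2-fold higher in each condition, with medians of 1.74 and 1.09 (7 in iQNP and 4 in TAP with the same sum of FPKM). The same shares of all genes apply, 14.4% in iQNP and 15.4% in TAP (7.92% and 7.01% with the same sum). Ndufb4 was at 326 and 1139.9 FPKM in iQNP and at 205 and 1361 in TAP, where it was the most abundant member after knockdown. Ndufb7, on the intermembrane side, was at 141 and 540.4 FPKM in iQNP and at 63.5 and 464 in TAP. Ndufb8, a single-pass membrane subunit, was at 197 and 751 FPKM in iQNP and at 208 and 726 in TAP. Their log2 ratios were 1.80, 1.93 and 1.93 in iQNP and 2.73, 2.85 and 1.80 in TAP. Ndufb3 was at 26.1 and 125 FPKM in iQNP and at 22.4 and 141 in TAP (2.22 and 2.60). Ndufab1, the mitochondrial acyl carrier protein, which is part of the complex and also serves fatty acid synthesis, was at 12.0 and 42.6 FPKM in iQNP and at 19.6 and 54.0 in TAP.

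The same part of the complex also held 2 of the 7 members with ratios below 0 in both tables, the others being Ndufs1, Ndufs7, Ndufa10, Ndufaf1 and Ndufaf4. Ndufb10 was at 260.5 and 223.7 FPKM in iQNP and at 314 and 155 in TAP, 50.6% lower in TAP (log2 ratios -0.22 and -1.01). It is listed on chromosome 10 (13977306 to 13979468, build rn4), and the next member by size of fall in TAP, Ndufb9, lay just inside the bound. Ndufb9 was at 3137 and 2306 FPKM in iQNP and at 2284 and 1251 in TAP, 26.5% and 45.2% lower (-0.44 and -0.87). Ndufb5 was at 103 and 186 FPKM in iQNP and at 152 and 155 in TAP (0.85 and 0.03, the latter -0.58 with the same sum).

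Another 2 subunits of the distal part had smaller ratios. Ndufb11, a single-pass membrane subunit encoded on the X chromosome, was at 69.9 and 218 FPKM in iQNP and at 107 and 228 in TAP (log2 ratios 1.63 and 1.09, the latter 0.48 with the same sum). Ndufb2 was at 475 and 769 FPKM in iQNP and at 392 and 638 in TAP, and its ratios of 0.70 in both lay inside the bound.

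In the sets named here as examples, subunits that share a fold or a partner did not all share a direction. Ndufs5, Ndufa8, Ndufb7 and Ndufb10 are the 4 subunits with paired cysteine motifs on the intermembrane side, and the first 3 were at least 2-fold higher in both conditions while Ndufb10 had lower values. Ndufa6 and Ndufb9 belong to the LYR family and each binds a copy of the acyl carrier protein Ndufab1. Ndufa6 was at 238 and 746 FPKM in iQNP and at 261 and 616 in TAP (log2 ratios 1.65 and 1.24), whereas Ndufb9 was lower. Ndufab1 itself had log2 ratios of 1.74 in iQNP and 1.42 in TAP.

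The assembly factors with an Nduf symbol were not among the higher members. Of these 3, 0 were at least 2-fold higher or lower in either condition. Over all measured genes 14.4% were higher and 3.15% lower in iQNP, and 15.4% and 6.82% in TAP, so 3 genes are too few to read this as a trait of assembly factors. Ndufaf1, which helps to assemble the membrane arm, was at 17.4 and 12.6 FPKM in iQNP and at 15.4 and 14.3 in TAP. Ndufaf3 and Ndufaf4 bind each other while the ubiquinone end is built. Ndufaf3 was at 31.1 and 46.0 FPKM in iQNP and at 26.04 and 37.4 in TAP (log2 ratios 0.55 and 0.51, the latter -0.08 with the same sum). Ndufaf4 was at 27.2 and 22.2 in iQNP and at 52.4 and 39.2 in TAP (-0.28 and -0.41). Of 8 measured assembly factors with other symbols, 2 were at least 2-fold higher in each condition (1 in iQNP and 0 in TAP with the same sum of FPKM), the membrane proteins Tmem126a (5.01 to 16.8 FPKM in iQNP, 6.17 to 18.3 in TAP) and Tmem126b (15.1 to 41.6 and 16.3 to 38.0). The median of these 8 was 0.40 in iQNP (-0.09 with the same sum) and 0.78 in TAP.

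Another 3 assembly factors now named with the prefix are listed in the tables under older symbols, so the rule did not take them, and they were added after the values were seen. Ndufaf5 was at 62.7 and 65.9 FPKM in iQNP and at 97.8 and 46.2 in TAP, 52.7% lower in TAP. Ndufaf7 was at 9.10 and 10.2 FPKM in iQNP and at 7.87 and 9.70 in TAP. Ndufaf8 was at 143 and 214 FPKM in iQNP and at 163 and 155 in TAP. Of the 6 assembly factors with these 3 included, none was at least 2-fold higher, where 14.4% of all genes were in iQNP and 15.4% in TAP, again too few genes to read as a trait. Dmac1 and Dmac2, also listed under older symbols, had log2 ratios of 0.44 and 0.54 in iQNP and of -0.06 and 0.59 in TAP.

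**Figure D2:**
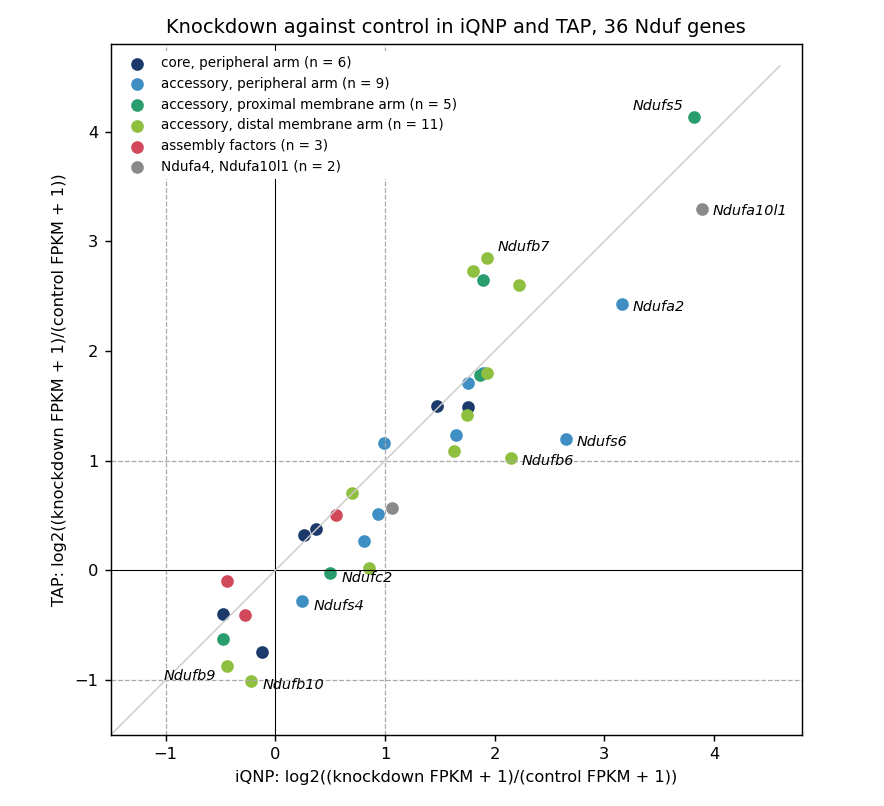
Log2 ratio of knockdown to control in TAP (vertical) against iQNP (horizontal), each point 1 of 36 measured Nduf genes coloured by role; dashed lines mark 2-fold, the grey diagonal equal ratios. Most points lie along the diagonal from Ndufb9 and Ndufb10 at the lower left to Ndufs5 at the upper right, and Ndufs6 and Ndufb6 lie farthest below it.

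The order of the members was much the same in iQNP and TAP. Across the 37 genes the log2 ratios of both tables had a Pearson's r of 0.91 and a Spearman's rho of 0.92. The 9137 other genes measured in both tables had values of 0.92 and 0.86, so the other genes were about as alike between the tables. Genes are not independent replicates, and both tables share the hairpin vector, the annotation and the processing. At least 2-fold higher in both tables were 18 members, with 1 more in iQNP alone (Ndufa4, 539.9 to 1129 FPKM in iQNP and 829 to 1231 in TAP, where its log2 ratio of 0.57 was -0.04 with the same sum) and 1 more in TAP alone (Ndufa9). Over the 9174 genes measured in both tables, 11.7% were higher in both, 2.73% in iQNP alone and 3.75% in TAP alone. The 1 member alone in each table (2.70%) was near or below those shares. With the same sum of FPKM, 11 members were higher in both, 6 in iQNP alone and 0 in TAP alone, and the ratio of Ndufa9 in TAP was 0.56. Over all genes these shares were then 5.61%, 2.32% and 1.41%. The log2 ratio was above 0 in both tables for 28 members (75.7%, against 42.9% of all genes) and below 0 in both for 7 (18.9% against 42.4%). The ratio was larger in iQNP for 25 of 37 (67.6% against 50.4% of all genes).

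Ndufs6 and Ndufb6 had ratios more than 1 log2 unit apart, and in both the control values differed more between conditions than the knockdown values. The share of all genes with ratios that far apart was not computed. The row named Ndufs6, after a zinc-binding subunit of the peripheral arm, was at 38.3 and 245 FPKM in iQNP and at 102 and 235 in TAP. Its log2 ratio was 2.65 against 1.20, and it may measure a pseudogene (below). Ndufb6, a membrane subunit, was at 35.9 and 163 FPKM in iQNP and at 84.0 and 172 in TAP, 2.15 against 1.03. Compared across the separately normalised tables, these were the 2 of 37 members with control values at least 2-fold higher in TAP than in iQNP. That is near the share over 9174 genes (5.81%). Ndufb7 was the 1 at least 2-fold lower (8.93% of genes). No member differed 2-fold between the knockdown groups, where 12.1% of genes did. With 1 value per group, the difference in ratio could not be tested.

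The row named Ndufs6 needs care. It is listed on chromosome 2 (26295709 to 26296123, build rn4), whereas the reference gene table places Ndufs6 on chromosome 1 and a pseudogene, Ndufs6-ps1, for which Ndufs6 is an older symbol, on chromosome 2. Its locus spans 414 bases, so its values may be those of the pseudogene or hold reads from more than 1 copy. The counts of higher accessory subunits and of members higher in both tables include this row. In all, 20 of the 38 members had a named pseudogene or close copy in that table, with 11 for Ndufb4, 5 for Ndufaf4 and 4 each for Ndufa2 and Ndufa5. Of the 17 measured members without one, 7 were at least 2-fold higher in iQNP (41.2%) and 8 in TAP (47.1%). With one, the counts were 12 of 20 (60.0%) and 11 of 20 (55.0%). Another row was listed over the locus of 6 members (Ndufa1, Ndufa2, Ndufa10, Ndufa10l1, Ndufs3 and Ndufs4), and as the sources used here state no use of strand, reads could be divided between such rows.

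**Figure D3:**
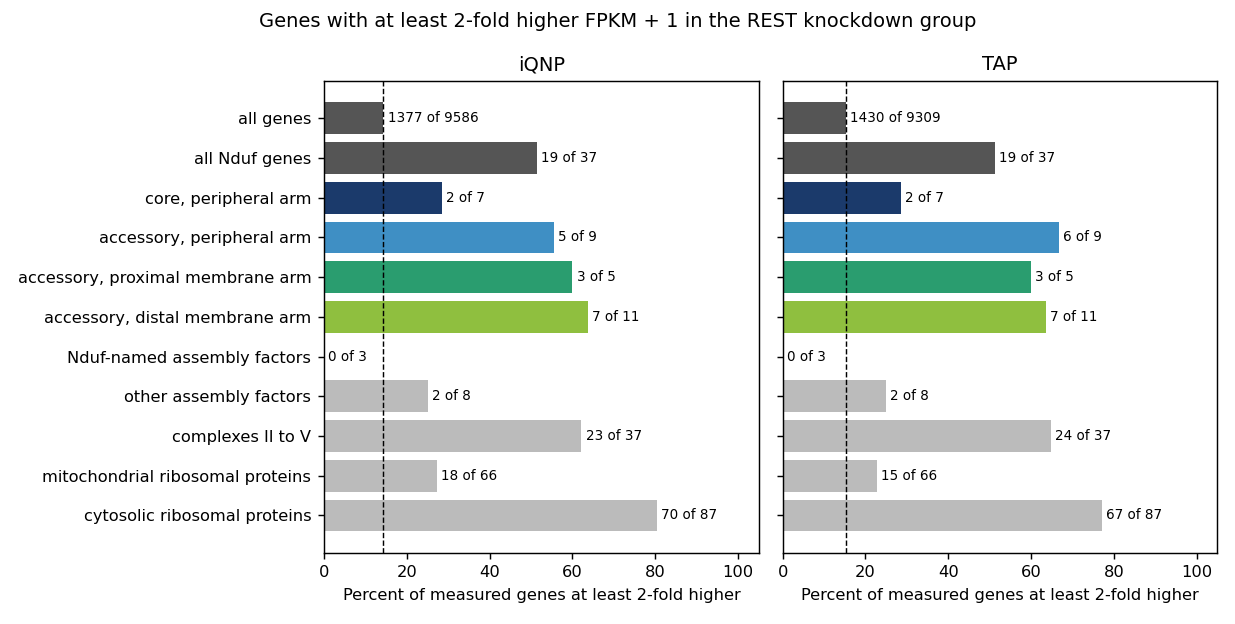
Percent of measured genes at least 2-fold higher in the knockdown group in iQNP (left) and TAP (right), with counts beside the bars; the dashed line is the percent over all measured genes. The 3 groups of accessory subunits lie between 55.6% and 66.7%, core subunits at 28.6%, the 3 assembly factors at 0, and complexes II to V and cytosolic ribosomal proteins above 60%.

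Genes of the other respiratory complexes were also often higher. Of 37 measured genes of complexes II to V and cytochrome c, 23 were at least 2-fold higher in iQNP and 0 lower, and 24 were higher and 1 lower in TAP, with medians of 1.28 and 1.47. With the same sum of FPKM, 18 were higher and 1 lower in iQNP and 18 higher and 2 lower in TAP, with medians of 0.76 and 0.87, where the Nduf genes had 17 and 0 and 11 and 5. Cytochrome c itself, Cycs, was at 24.8 and 443 FPKM in iQNP and at 29.9 and 407 in TAP. Cox6c, a cytochrome c oxidase subunit, had the highest level of that list and lower values after knockdown, at 11147 and 7164 FPKM in iQNP and at 8226 and 3422 in TAP. Mitochondrial ribosomal protein genes were higher less widely, 18 of 66 in iQNP and 15 of 66 in TAP, with medians of 0.70 and 0.56. Cytosolic ribosomal protein genes were higher more widely, 70 of 87 and 67 of 87, with medians of 4.41 and 4.10. Among all genes 14.4% were higher in iQNP and 15.4% in TAP, and 7.92% and 7.01% with the same sum. None of these differences between lists was tested.

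**Figure D4:**
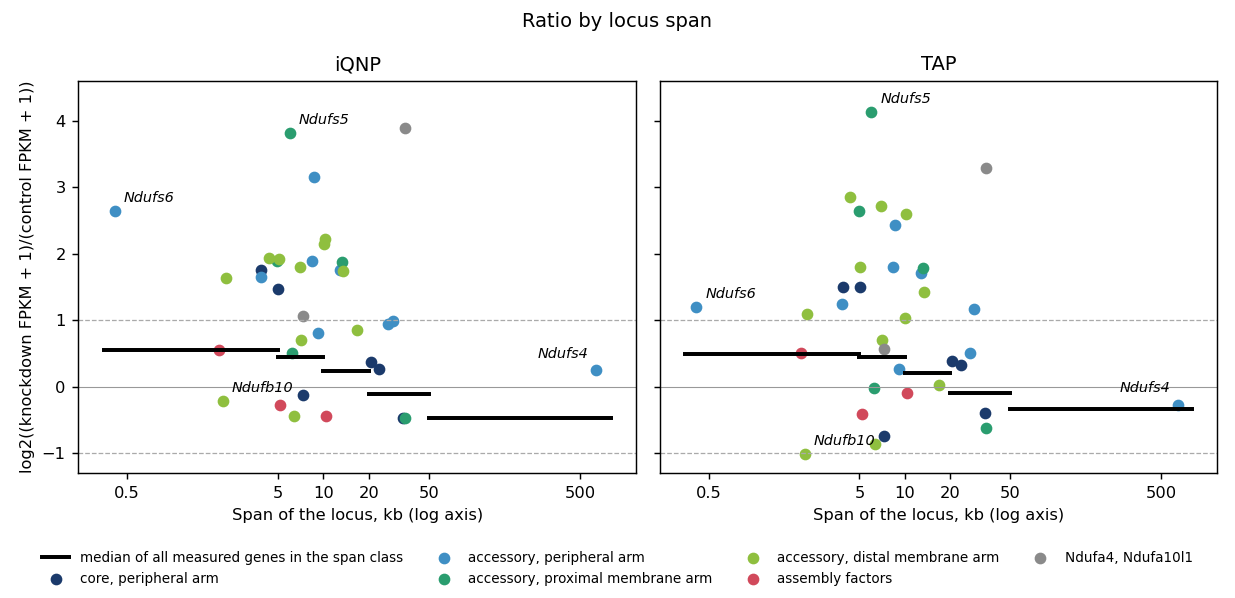
Log2 ratio of knockdown to control against the span of 36 measured Nduf loci in kb (log axis) in iQNP (left) and TAP (right), coloured by role; black bars are the medians of all measured genes in the same span class. The black bars step down from 0.55 to -0.47 in iQNP and from 0.50 to -0.33 in TAP as loci become longer, and the members with the highest ratios have loci under 20000 bases apart from Ndufa10l1.

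Genes with short loci were more often higher after knockdown, and most Nduf loci are short. Of the measured genes with a locus under 5000 bases, 34.5% were at least 2-fold higher in iQNP and 32.8% in TAP, against 3.22% and 4.56% of those of at least 50000 bases. In the shortest class, 6 of 8 members were higher in each condition. Between 5000 and 10000 bases, 7 of 13 members were higher in iQNP and 6 in TAP (25.2% and 25.02% of all genes). Between 10000 and 20000 bases, 5 of 8 were higher in each (16.1% and 18.4% of all genes). Between 20000 and 50000 bases, 1 of 7 was higher in iQNP and 2 in TAP (7.45% and 9.27%), and the 1 longer locus, Ndufs4, was not. The most abundant genes were also higher more often, with 42.2% in iQNP and 37.3% in TAP of those at a mean of 300 FPKM or more, where 6 of 11 and 4 of 10 members were higher. The part of locus span and of level in the members' counts was not tested beyond these classes.

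Transcripts of the listed regulators of respiratory genes did not, as a group, share the members' direction. The list is mixed, as Hif1a, Tfam and Tfb2m are not known as drivers of nuclear respiratory genes. Hif1a's ratio of -0.39 was itself the median in iQNP. Of 11 such regulators, 1 was at least 2-fold higher and 1 lower in iQNP, and of 10 measured in TAP 1 was higher and 1 lower, with medians of -0.39 and -0.33. With the same sum of FPKM, 1 was higher and 4 lower in each table (medians -0.76 and -0.80). The shares over all genes were 14.4% higher and 3.15% lower in iQNP and 15.4% and 6.82% in TAP, and 7.92% and 20.9% and 7.01% and 26.0% with the same sum. Esrra, a nuclear receptor that activates oxidative phosphorylation genes, was at 8.01 and 30.5 FPKM in iQNP and at 6.18 and 24.0 in TAP. Ppargc1a, the coactivator PGC-1alpha, was at 9.60 and 2.47 FPKM in iQNP and at 1.06 and 0.390 in TAP, where its mean was below the minimum. Gabpa, the DNA-binding part of nuclear respiratory factor 2, was at 42.3 and 29.4 FPKM in iQNP and at 61.9 and 30.7 in TAP. Nrf1 was at 51.5 and 29.5 and at 53.5 and 29.1. Yy1, a zinc finger factor that binds many respiratory gene promoters, was at 69.8 and 38.3 and at 81.7 and 36.5 (log2 ratio -0.85 in iQNP and -1.14 in TAP).

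The promoters of the members were searched for short binding motifs of these factors and of REST, on both strands, in the RefSeq promoter sequences of build GRCr8 (250 bases before and 50 after each gene's start). Sequences matched 34 of the 38 members by symbol. The YY1 motif AAGATGGCG was found in 7 of the 34 (20.6%), and in 1.93% of all 27457 promoters. These 7 windows are shown because the match lay in a similar place in each, on the gene's own strand, with its first base between positions 5 and 27 after the start. Of all promoters with the motif on the gene's own strand, 66.8% held it after the start. The motif contains the letters ATG, and whether these begin the coding sequence was not checked, so the shares are not of YY1 sites as such. Capitals mark the motif, with 10 bases on either side.
Ndufa2, chr18:28631840-28631868, minus strand: tttgctagcaAAGATGGCGgccgcaagcc
Ndufa6, chr7:115750284-115750312, minus strand: cttccttagcAAGATGGCGgccgcggcca
Ndufa9, chr4:161374142-161374170, minus strand: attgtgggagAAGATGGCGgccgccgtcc
Ndufb8, chr1:253362897-253362925, minus strand: ggagaaggtgAAGATGGCGgcgtcccggg
Ndufs4, chr2:47794892-47794920, minus strand: tgcccacaggAAGATGGCGgcggtctcaa
Ndufs6, chr1:31797413-31797441, plus strand: ggtcgtcggcAAGATGGCGgcggcgctga
Ndufs7, chr7:10110476-10110504, minus strand: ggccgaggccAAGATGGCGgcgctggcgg

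Members with the YY1 motif mostly had log2 ratios above 0, as the members as a whole did. Ratios below 0 were those of Ndufs7 in both tables (-0.12 in iQNP, -0.74 in TAP) and of Ndufs4 in TAP (-0.28). Of the 7, 4 were at least 2-fold higher in iQNP (Ndufa2, Ndufa6, Ndufb8 and Ndufs6) and 5 in TAP (with Ndufa9), while Ndufs4 and Ndufs7 were not. With the same sum of FPKM, 4 were higher in iQNP and 2 in TAP. Among all measured members 19 of 37 were higher in each table. Over all genes 14.4% were higher in iQNP and 15.4% in TAP, and 7.92% and 7.01% with the same sum. The promoter shown for Ndufs6 is that of the gene on chromosome 1, not of the locus listed in the tables.

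A second motif was chosen after the promoters were read, because it occurs in those of the extreme members on either side. GCGCAGGCG, which differs by a letter from the NRF1 motif GCGCATGCG, was found in 5 of 34 member promoters (14.7%) and in 2.84% of all promoters. The NRF1 letters themselves were found in 2 (Ndufa11 and Ndufaf4), against 1.66% of all promoters. The windows below show the GCGCAGGCG match in capitals for Ndufs5, with the largest ratio of any complex I subunit, for Ndufa5 and Ndufb4, and for Ndufb10, the member at least 2-fold lower in TAP. In Ndufs6 the match lay on the opposite strand.
Ndufs5, chr5:141264513-141264541, minus strand: gccgctggctGCGCAGGCGcaaaccgctc
Ndufa5, chr4:53971249-53971277, minus strand: cgtatgagctGCGCAGGCGcaaatctctc
Ndufb4, chr11:76569170-76569198, plus strand: ctctgtgcgcGCGCAGGCGcacttcctga
Ndufb10, chr10:14255948-14255976, minus strand: ccgtctttctGCGCAGGCGtagaggtccc

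As the motif was picked from these promoters, its share among the members is a description of that choice. The ETS motif CCGGAAG, bound by GABP and related factors, was found in 7 of 34 member promoters (20.6%) and in 9.22% of all promoters, with 5 of these 7 members at least 2-fold higher in each condition (5 in iQNP and 3 in TAP with the same sum of FPKM). Of all 37 measured members 19 were higher in each table, and 17 in iQNP and 11 in TAP with the same sum. Of all genes 14.4% and 15.4% were higher, and 7.92% and 7.01% with the same sum. A link of the motif to the ratios was not tested. The left and right parts of the REST site, TTCAGCACC and GGACAGCG, were found in 0 of 34 member promoters each, and in 0.379% and 1.28% of all promoters, which says only that these letters are not in these windows. A match of letters is a description and not a measured binding site.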

How the data were processed

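Values came from HCN cells in 12 libraries, 2 control and 4 REST knockdown in each of iQNP and TAP, grouped by their labels. The authors depleted total RNA of ribosomal RNA, mapped reads to rn4 with TopHat2 and made FPKM with Cuffdiff (versions not given in the sources used here). Each of the 2 deposited tables lists 16468 genes with 1 FPKM per gene and group, and is marked as revised without saying what was revised. The deposited columns of fold, test statistic, p, q and significance are the authors' own comparison and were not used; the deposited status mark served in 1 alternative.

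The log2 ratio used a pseudocount of 1 FPKM, the filter was a mean of at least 1 FPKM, and the bound was 2-fold, with the percent of all genes past it given at the first count of each comparison. This design came without tests, since no library values were used. Role groups, gene lists and the members themselves were chosen with earlier results of these data known. Named were Rest, the 8 largest and 4 smallest ratios per table, the 3 highest control levels, members at 0 or at least 2-fold lower, assembly factors and members differing by more than 1 log2 unit between tables; others were named as examples of their role. The values of 1 member are not reported here, in text or plots, though counts and medians include it. RefSeq tables of GRCr8 gave names (38 of 38 members matched) and promoters (34 of 38), and 6 motifs were searched. Calculations used Python 3.11.15, numpy 2.4.6, pandas 2.3.3, scipy 1.17.1 and matplotlib 3.10.9, and were tested on simulated data.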

Additional observations from a re-analysis of the deposited data

Results flagged for a closer look

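Among the 37 measured Nduf genes, 2 had log2 ratios of opposite sign in iQNP and TAP. Ratios were above 0 in both tables for 75.7% of members and 42.9% of all genes. They were below 0 in both for 18.9% and 42.4%, so opposite signs were less common among the members than among all genes. Ndufs4 was higher in iQNP knockdown (0.25) and lower in TAP knockdown (-0.28), so its ratio in TAP minus that in iQNP was -0.52. Ndufc2 had ratios of 0.50 and -0.03, a difference of -0.53. With the groups set to the same sum of FPKM both genes had negative ratios in both tables. With 1 value per group these differences were not tested.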

How the results depend on the processing

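No paired analysis was possible because each group has 1 pooled value, and for the same reason leaving out each library in turn was not run. Of 68 recomputed values, 51 stayed within 1.5 times (counts) or 0.1 log2 units (medians) of the reported one. These cover all Nduf genes together, and their median did not change sign. Medians of smaller lists did with equal sums of FPKM. That of the core subunits turned to -0.26 in iQNP and -0.29 in TAP, and that of the other assembly factors to -0.09 in iQNP. Scaling the groups to equal sums of FPKM moved the median to 0.54 in iQNP and 0.42 in TAP, and in TAP left 11 genes higher and 5 lower. With cytosolic ribosomal protein genes left out of the sums, the medians were 0.86 and 0.87, and 2 genes were lower in TAP. Without a filter on low values the median in TAP was 0.86, since Ndufa11 at 0 then counts. Without genes that have a named copy, 7 genes were higher in iQNP and 8 in TAP, 0 were lower in TAP, and the medians were 0.85 and 0.70, over 17 instead of 37 genes. In TAP, a fold of 1.5 gave 4 lower genes (20.3% of all genes), and a fold of 3 gave 11 higher (6.89% of all genes) and 0 lower (0.967%). Added after seeing the data, leaving out genes at a shared locus moved none of the 6 results, and leaving out Ndufa10l1 moved the median in TAP to 0.86. Depth per library is unknown here, so how far any single ratio exceeds counting error was not computed.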
